A study of Homo sapiens with 24 samples.

Results

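The zinc finger genes of human chromosome 19 were examined for the super-enhancers that lie near them in a B cell lymphoma line. A gene was taken as a member when GENCODE version 44 lists it as protein-coding on chromosome 19 and its symbol is ZNF followed by a number. This rule uses no measured value, and it gave 246 of the 19970 genes of this kind on the autosomes and X. A member was called linked when a deposited super-enhancer overlapped its gene body extended by 50 kb on each side. It was compared with the other 1230 protein-coding genes of chromosome 19 and with 250 genes of the same naming pattern on other autosomes.

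The study profiled histone marks by CUT&RUN, which releases DNA beside an antibody-bound mark with a tethered nuclease, in OCI-Ly7, a cell line from diffuse large B-cell lymphoma of germinal center type (GCB-DLBCL). The 24 samples covered 3 marks, H3K4me1, H3K27ac and H3K4me3, in 4 isogenic genotypes with 2 samples per mark and genotype: unedited control clones (WT), a homozygous CREBBP knock-in (C), a homozygous KMT2D knockout (K) and both changes together (CK). The values used here come from 1 deposited table, in which H3K27ac of WT was pooled into a single column of 2615 super-enhancers, 86 of them on chromosome 19. The other 22 samples have no value in it, so no genotypes were compared, no test between replicates was possible, and every share below describes 1 pooled measurement of unedited clones of 1 cell line.

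Super-enhancers are stretches of clustered enhancers with a high summed level of H3K27ac, a mark of active enhancers and promoters, and they often lie near genes that define a cell type. Most zinc finger proteins of chromosome 19 carry a tandem array of C2H2 fingers, which read DNA, and many begin with a KRAB box, which recruits the corepressor TRIM28 and, through it, the histone methyltransferase SETDB1. Their genes lie in clusters that grew by local duplication, and many of the proteins bind and silence transposable elements.

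Only 9 of the 246 members had a super-enhancer within 50 kb, a share of 3.66%. Among all protein-coding genes the share was 30.7%. The members' share has an exact binomial 95% interval of 1.69 to 6.83%, which covers counting error over genes only, and neighbouring genes that share a region are not independent. The 9 linked members fell on 7 distinct regions, and none of them had more than 1. A region overlapped the gene body of 3 members (1.22%), against 17.3% of all genes, and the start of 3 members lay inside a region (1.22%), against 7.81% of all genes. These were the same genes, ZNF77, ZNF526 and ZNF787.

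The RefSeq promoters of those 3 genes, whose start lies inside a region, and of ZNF91 are shown side by side as examples. ZNF91 is among the 5 members farthest from any region, and is the nearest of those 5. Each runs from 250 bases before the start to 50 bases after it, 5′ to 3′ on the strand of the gene, in GRCh38.p14, and capitals mark the CG dinucleotides. CG reads the same on both strands and was counted once. The ZNF77 promoter lies at chr19:2944922-2945221 on the minus strand and holds 22 CG. That of ZNF526 lies at chr19:42220062-42220361 on the plus strand and holds 24 CG. The ZNF787 promoter lies at chr19:56121246-56121545 on the minus strand and holds 32 CG. ZNF91 starts in chr19:23395422-23395721 on the minus strand, with 11 CG, which is below the median of 20 among unlinked members.
ZNF77: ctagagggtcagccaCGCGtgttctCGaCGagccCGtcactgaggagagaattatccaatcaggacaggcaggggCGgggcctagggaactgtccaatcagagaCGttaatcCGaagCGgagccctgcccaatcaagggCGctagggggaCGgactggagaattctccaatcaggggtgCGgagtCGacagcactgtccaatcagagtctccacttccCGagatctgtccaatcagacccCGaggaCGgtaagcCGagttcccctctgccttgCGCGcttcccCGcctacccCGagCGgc
ZNF526: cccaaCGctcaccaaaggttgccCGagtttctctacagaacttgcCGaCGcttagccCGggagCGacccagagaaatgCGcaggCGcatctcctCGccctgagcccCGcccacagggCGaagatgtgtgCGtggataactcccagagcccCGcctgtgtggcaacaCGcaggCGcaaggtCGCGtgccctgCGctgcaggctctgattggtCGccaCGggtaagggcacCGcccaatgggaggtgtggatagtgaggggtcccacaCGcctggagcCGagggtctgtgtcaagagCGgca
ZNF787: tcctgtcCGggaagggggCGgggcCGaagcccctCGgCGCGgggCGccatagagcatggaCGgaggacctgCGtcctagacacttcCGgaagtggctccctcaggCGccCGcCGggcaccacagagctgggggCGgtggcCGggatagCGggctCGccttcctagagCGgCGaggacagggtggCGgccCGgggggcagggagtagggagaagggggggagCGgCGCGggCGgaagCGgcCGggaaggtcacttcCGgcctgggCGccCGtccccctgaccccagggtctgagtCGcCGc
ZNF91: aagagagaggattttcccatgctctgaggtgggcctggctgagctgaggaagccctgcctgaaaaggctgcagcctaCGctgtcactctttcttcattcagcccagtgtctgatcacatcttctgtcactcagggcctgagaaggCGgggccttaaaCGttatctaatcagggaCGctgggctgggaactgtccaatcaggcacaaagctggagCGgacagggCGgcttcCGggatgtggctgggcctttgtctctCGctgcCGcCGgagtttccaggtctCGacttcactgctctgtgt

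A RefSeq promoter was matched for 216 of the 246 members. The median was 20 CG, with a range of 2 to 49, and 201 of the 216 (93.1%) held at least 10. Of all 35116 promoters in the RefSeq table, 96.0% held at least 1 CG and 56.4% held at least 10. Zinc finger genes of other autosomes were close to the members, with a median of 24 CG and 90.2% holding at least 10. Other chromosome 19 genes had a median of 21, and 73.4% held at least 10. The 9 linked members had 22 to 49 CG, with a median of 24, and the 207 unlinked members with a promoter had 2 to 42, with a median of 20, so the ranges overlap. CG-rich promoters were found in linked and unlinked members alike: 192 of the 207 unlinked ones (92.8%) held at least 10. Peaks close to the start of a protein-coding gene were left out when the regions were built, so the table gives no value for a promoter on its own, although a region that spans a start includes the signal there.

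The other genes of chromosome 19 were linked in 377 of 1230 cases (30.7%, interval 28.1 to 33.3%), and they reached all 86 regions of the chromosome. The share of members minus the share of these genes was -27.0 percentage points, with a 95% interval of -30.3 to -22.9. The 250 zinc finger genes of other autosomes were linked in 64 cases (25.6%, interval 20.3 to 31.5%), to 66 regions, and the difference from them was -21.9 points, with an interval of -28.1 to -15.8. Both intervals treat genes as independent, which genes that share a region are not. The other chromosome 19 genes were thus as often linked as all genes, and the zinc finger genes of other autosomes were a little below, while the members stood far under both.

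Members had the lowest share at each distance allowed. With no extension of the gene body, 1.22% of members, 14.5% of other chromosome 19 genes and 15.2% of zinc finger genes of other autosomes were linked. Extended by 100 kb, the shares were 6.10%, 41.9% and 36.4%. At 500 kb they were 30.9%, 74.0% and 72%, so that the members reached at 500 kb the level that all genes had at 50 kb.

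**Figure D1:**
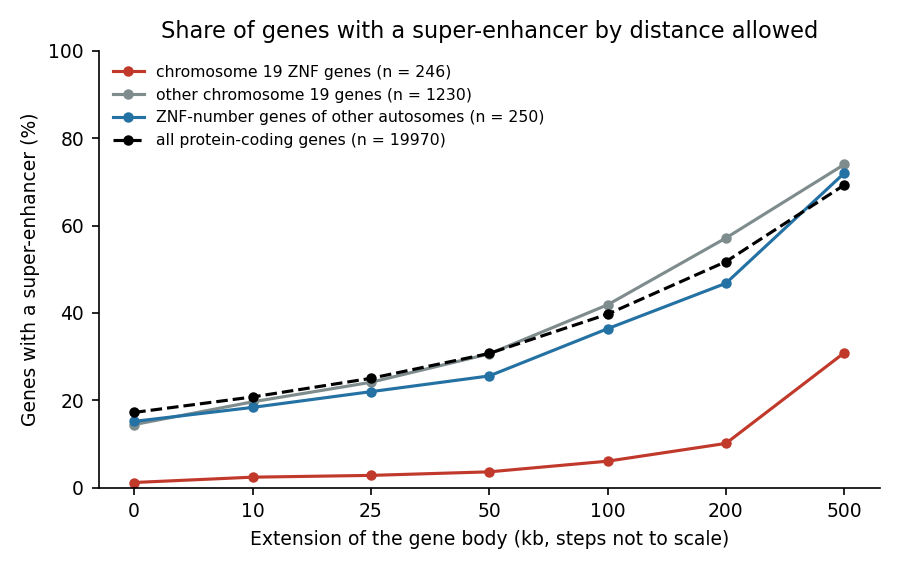
Share of genes with a super-enhancer (y axis, %) against the length by which the gene body was extended on each side (x axis, kb, steps not to scale), with 1 line for each gene set and no error bars. The line of the 246 members stays below the other 3 at every step, at 3.66% for 50 kb and 30.9% for 500 kb.

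The median member lay 1005 kb from the nearest super-enhancer, with quartiles of 442 and 2292 kb. Other chromosome 19 genes had a median distance of 148 kb, zinc finger genes of other autosomes 229 kb and all genes 182 kb. Of the members, 123 (50%) were over 1 Mb away, compared with 167 of the other chromosome 19 genes (13.6%) and 41 of the zinc finger genes of other autosomes (16.4%).

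**Figure D2:**
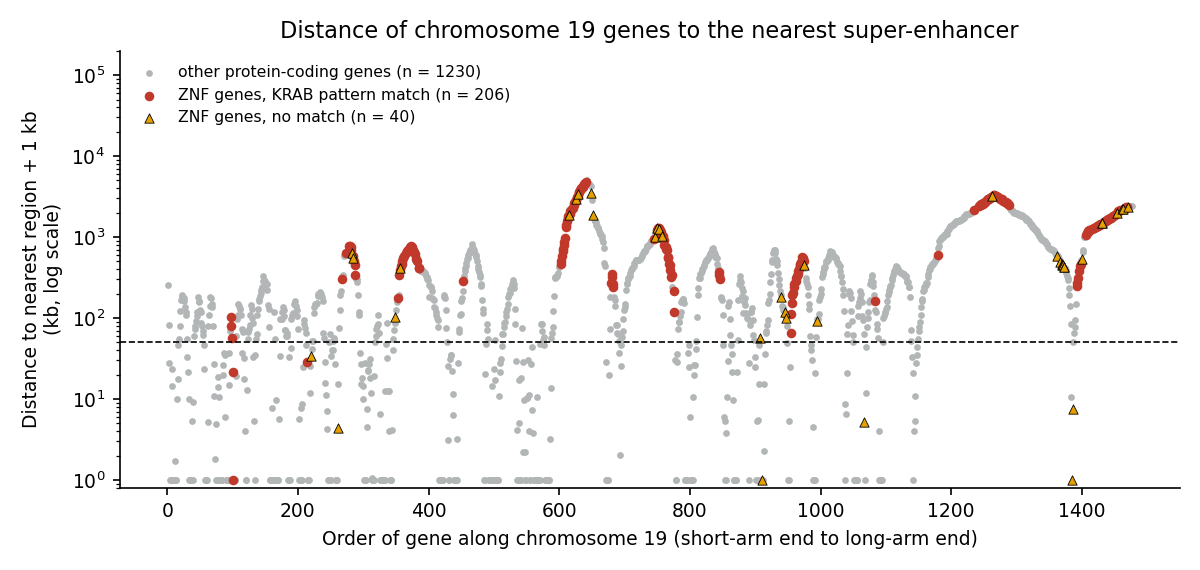
Distance from each chromosome 19 gene body to the nearest super-enhancer (y axis, kb plus 1, log scale) in the order of genes along the chromosome (x axis), with 206 members that match the KRAB pattern as red circles, the other 40 members as yellow triangles and 1230 other genes in grey; the dashed line is 50 kb. Members gather at the crests of the distance, up to 4834 kb, and 9 lie under the line.

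The linked members are described in the order of the signal of their region, the ROSE sum of H3K27ac over the region on a scale that the file does not name, with the caller's cutoff at 10617. ZNF358 (ENSG00000198816.7, chr19:7515292-7521025, plus strand) lay 33.0 kb from the region of highest signal, which spans chr19:7322840-7482269. That region had a signal of 87415, or 8.23 times the cutoff, was built from 45 constituent peaks and ranked 39 of 2615 overall and 2 on chromosome 19. It overlapped ARHGEF18, which encodes a guanine nucleotide exchange factor, and PEX11G, a peroxisome gene, and 6 other genes besides ZNF358 lay within 50 kb. Of its bases, 75.6% were intronic, 5.32% exonic and 19.1% outside genes.

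ZNF557 (ENSG00000130544.12, chr19:7069703-7087968, plus strand) lay 27.4 kb from a region at chr19:7115386-7284585 inside INSR, the insulin receptor gene. This region ranked 238 with a signal of 48949, or 4.61 times the cutoff, and 95.8% of it was intronic. ZNF414 (ENSG00000133250.14, chr19:8509678-8514167, minus strand) lay 3.35 kb from a region at chr19:8430477-8506332 with a signal of 32496 and rank 582. The region overlapped MARCHF2, a ubiquitin ligase gene, HNRNPM, which encodes a splicing factor, and PRAM1. Regions near ZNF358, ZNF557 and ZNF414 all lie within one stretch of the short arm, and none of them touches a member.

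ZNF77 (ENSG00000175691.9, chr19:2933218-2944971, minus strand) and ZNF57 (ENSG00000171970.14, chr19:2900928-2918473, plus strand) shared a region at chr19:2939276-2997950. Its signal was 30992, or 2.92 times the cutoff, at rank 645. The region covered 5.70 kb of ZNF77, or 48.5% of the gene body with its start, and lay 20.8 kb from ZNF57. It also overlapped TLE2 and TLE6, of the Groucho family of corepressors, and 59.7% of it was outside genes.

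ZNF541 (ENSG00000118156.13, chr19:47520690-47573148, minus strand), a gene with a role in male meiosis, lay 4.15 kb from a region at chr19:47577295-47702615. This region overlapped BICRA, which encodes a chromatin remodelling subunit, and had a signal of 21530 at rank 1151. ZNF526 (ENSG00000167625.12, chr19:42220292-42228201, plus strand) lay wholly inside a region at chr19:42137719-42233316, with a signal of 18135, or 1.71 times the cutoff, at rank 1460. The same region overlapped POU2F2, a transcription factor of B cells, with DEDD2, GSK3A and ENSG00000288671, and 7 other genes lay within 50 kb. The link of ZNF526 is thus to a region that it shares with a B cell gene.

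ZNF787 (ENSG00000142409.6, chr19:56087366-56121295, minus strand) also lay wholly inside a region, at chr19:56071342-56126013. Its neighbour ZNF444 (ENSG00000167685.15, chr19:56132599-56160893, plus strand) lay 6.59 kb from it. This region had a signal of 12230, or 1.15 times the cutoff, and rank 2284, the lowest of the 7. It is the 1 region of the 7 in which no gene other than a member was overlapped, although 2 other genes lay within 50 kb of it.

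The 7 regions near members had a median signal of 30992, from 12230 to 87415, and the other 79 regions of chromosome 19 had 18226, from 10757 to 90287. Per base the order turned: the medians were 0.289 near members and 0.380 in the others, and the regions near members were longer, with medians of 95.6 and 53.0 kb. The ranges overlap on each scale. The higher median of summed signal depends on the distance allowed. Over linked members it was 18135 with no extension of the gene body, from 3 members, and 19832 at 10 kb. It was 21530 at 25 and at 100 kb and 18135 at 200 kb. These are medians over members, some of which share a region, while 18226 is a median over regions. Where members had a super-enhancer near them, its summed signal therefore lay within the range of the chromosome.

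No member lay between 33.0 kb, the distance of ZNF358, and 55.8 kb, that of ZNF556, so the limit of 50 kb falls in a gap. The 3 members nearest inside it were ZNF358, ZNF557 and ZNF57. Those nearest outside were ZNF556 at 55.8 kb, ZNF574 at 56.2 kb and ZNF283 at 65.1 kb. The nearest region of ZNF556 is that of ZNF77, and that of ZNF574 is the region around ZNF526.

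The 5 members farthest from a super-enhancer were ZNF91 at 4106 kb, ZNF675 at 4326 kb, ZNF681 at 4540 kb, ZNF726 at 4716 kb and ZNF254 at 4834 kb. All of them lie in the short-arm group that ends beside the centromere, and all match the KRAB pattern. ZNF91, known for silencing SVA retrotransposons, had 32 C2H2 fingers, and ZNF675, known as an inhibitor of TRAF6 signalling, had 11. Only ZNF208 and ZNF729, with 36 and 39 fingers, had more than ZNF91; they are named after their values were seen and lay 2734 and 3087 kb away in the same group.

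Members with a described role were also looked up, and are named after their values were seen. ZNF274, which brings SETDB1 to the ends of zinc finger genes, lay 2057 kb from a region. The imprinted gene ZNF331 lay at 2491 kb. ZNF568, whose mouse counterpart represses a placental Igf2 transcript, lay at 931 kb, and ZNF224, a transcriptional repressor that binds WT1, lay at 332 kb. ZNF473, which acts in histone pre-mRNA processing, lay at 606 kb. ZNF536, a gene of neuronal differentiation, was at 3544 kb. None of these had a link.

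Joined over gaps of at most 1 Mb, the members formed 16 location groups, of which 7 held at least 10 members. Their 225 members included 5 linked ones (2.22%). The 9 small groups, of which 4 were single genes, held 21 members with 4 linked ones. Between the large groups the share ran from 0% in 5 of them to 20%, and the spread is described here without a test. It depended on the settings. The highest minus the lowest share was 1.69 points with no extension, 6.67 at 10 and at 25 kb, 20 at 100 kb and 33.3 at 200 kb. With members joined over gaps of up to 500 kb or 2 Mb it was 12.5 or 7.5 points.

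The group from ZNF557 to ZNF846 (chr19:7069703-9793180) had 3 of 15 members linked, and 23 of the 60 other genes in its span (38.3%). Its links lay in the part that holds ZNF557, ZNF358 and ZNF414; the 12 members from ZNF558 on were 300 to 785 kb away. The group from ZNF628 to ZNF446 (chr19:55476617-58481230), at the end of the long arm, had 2 of 59 members linked and 2 of 51 other genes (3.92%). Here the 2 kinds of gene had like shares.

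In 4 large groups there was no region at all and no linked gene of either kind. They run from ZNF653 to ZNF791 (25 members, chr19:11483427-12640098), from ZNF101 to ZNF254 (37 members, chr19:19668796-24129968), from ZNF565 to ZNF573 (26 members, chr19:36182276-37817300) and from ZNF175 to ZNF331 (39 members, chr19:51571283-53580269). Together they hold 127 members and 38 other genes over 9.26 Mb. No upper limit of a share is drawn from a count of 0 in groups picked in this way. Their members had a median distance of 1821 kb. These groups were singled out for having no region in their span, so a gene in them could be linked only to a region just outside. The lack of links in both kinds of gene follows largely from that choice.

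The group from ZNF575 to ZNF296 (chr19:43525497-45076478) differed from those 4. None of its 24 members was linked, while 13 of the 32 other genes in the span were (40.6%), to 2 regions. As this group too is singled out for its counts, no upper limit of a share is drawn from it. Its members lay 65.1 to 564 kb from a region, with a median of 300 kb. It is the 1 large group in which other genes had links and members had none.

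**Figure D3:**
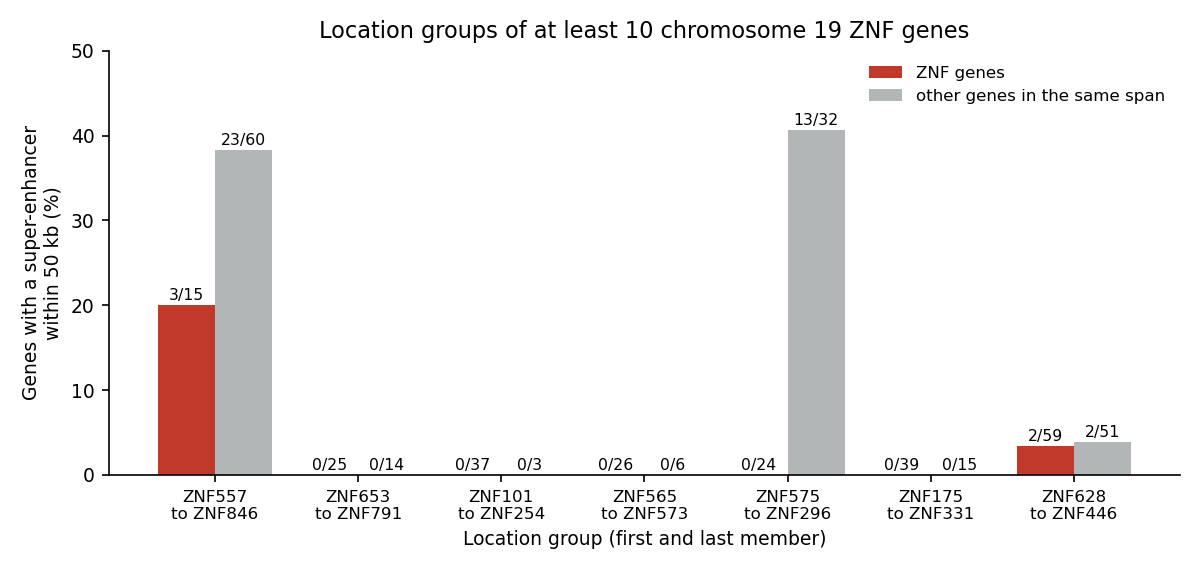
Share of genes with a super-enhancer within 50 kb (y axis, %) in the 7 location groups of at least 10 members (x axis, first and last member), with members in red and other genes of the same span in grey; the numbers are linked genes over all genes, and there are no error bars. Both bars are at 0 in 4 groups, and in the group from ZNF575 to ZNF296 only the grey bar rises, to 40.6%.

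Within the spans of the 7 large groups, 8 regions lay in 16.5 Mb, or 0.484 per Mb, compared with 78 regions in the other 41.9 Mb, or 1.86 per Mb. The spans also held fewer other genes, 10.9 against 25.04 per Mb, and had a lower GC content, 44.6 against 49.2%. Of the 181 other genes inside the spans, 38 were linked (21.0%), and of the 1049 outside, 339 (32.3%). These measures move together with the low share of members, and their part in it was not tested.

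Stretches without a super-enhancer held most members. Chromosome 19 has 11 gaps of over 1 Mb between regions, or between a region and the chromosome end, with a total of 37.4 Mb. They contain 229 members (93.1%) and 597 other genes (48.5%). These gaps are drawn from the same regions as the links, so the counts restate the low share in another form. They also take up most of the chromosome, of which 16.5 Mb lies inside the spans of the large groups and 41.9 Mb outside. The longest gap, chr19:19199216-34257303, includes the centromere and has 39 members and 47 other genes in 15.1 Mb. Next are chr19:49419437-56071341, with 47 members and 195 other genes, and chr19:35223757-37935863, with 26 members and 59 other genes. The last stretch of the long arm, chr19:56126014-58617616, holds 51 members and 40 other genes in 2.49 Mb, so members outnumber the other genes there.

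Proteins were compared by translating the canonical GENCODE coding sequence and searching it for patterns of the C2H2 finger and of the KRAB box. Members had 1 to 39 fingers, with a median of 13, and 245 of 246 had at least 3; ZNF428 had 1. The KRAB pattern was found in 206 members (83.7%) and in 108 of the zinc finger genes of other autosomes (43.2%). Of the 206 members with it, 3 were linked (1.46%), namely ZNF57, ZNF77 and ZNF557. Of the 40 members without it, 6 were linked (15%), which were ZNF358, ZNF414, ZNF444, ZNF526, ZNF541 and ZNF787. Median distances were 1159 kb with the pattern and 513 kb without.

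The pattern was loosened after a stricter one had missed known KRAB genes, and with the links known. Under the stricter pattern the counts were 2 of 179 (1.12%) and 7 of 67 (10.4%), so the order was kept. On other autosomes 20 of 108 genes with the pattern (18.5%) and 44 of 142 without it (30.99%) were linked, the same order at higher levels. Among genes with the pattern, members minus genes of other autosomes was -17.1 points, with an interval of -25.8 to -9.71. Without it the difference was -16.0 points, with an interval of -28.4 to 0.631, which includes 0. A further 28 chromosome 19 genes with other names matched the KRAB pattern, 14 of them with under 3 fingers, and none of the 28 was linked.

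Spacing between zinc finger genes was examined in the same way. Of the 246 members, 234 (95.1%) had another zinc finger gene of this naming within 200 kb, and 5 of them were linked (2.14%), compared with 4 of the 12 members without such a neighbour (33.3%). On other autosomes 116 of 250 genes (46.4%) had a neighbour, and the shares were 20.7% with and 29.9% without one. With both the pattern and a neighbour, 2 of 200 members were linked (1%) and 12 of 73 genes of other autosomes (16.4%). With the pattern and no neighbour the counts were 1 of 6 (16.7%) and 8 of 35 (22.9%), and with a neighbour and no pattern 3 of 34 (8.82%) and 12 of 43 (27.9%). With neither, 3 of 6 members were linked and 32 of 99 genes of other autosomes (32.3%). Members were below the genes of other autosomes in the other 3 classes, and 6 genes are too few to give a share with any precision.

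**Figure D4:**
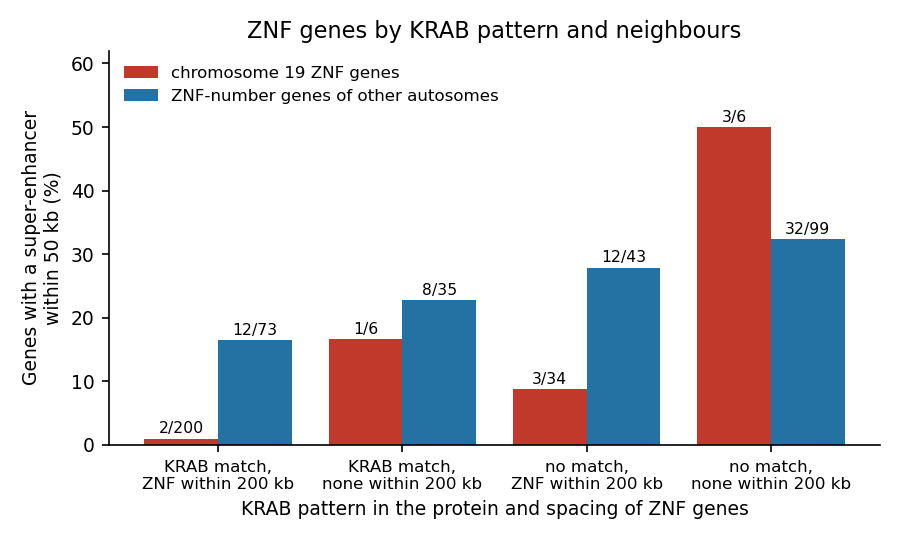
Share of zinc finger genes with a super-enhancer within 50 kb (y axis, %) by KRAB pattern and by whether another gene of this naming lies within 200 kb (x axis), for chromosome 19 in red and other autosomes in blue; the numbers are linked genes over all genes, and there are no error bars. The red bar is lowest at 2 of 200 and rises above the blue bar only where neither holds, at 3 of 6.

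The number of fingers was set beside the links. With under 8 fingers, 4 of 31 members had a super-enhancer within 50 kb (12.9%), which were ZNF414 with 3 fingers, ZNF444 with 4, ZNF541 with 5 and ZNF787 with 7. With 8 to 12 fingers the count was 2 of 91 (2.20%), and with 13 or more 3 of 124 (2.42%). Zinc finger genes of other autosomes had shares of 29.8%, 20% and 26.8% in the same classes, so the class of longest arrays was not low there. Finger number, KRAB pattern and spacing go together in these genes and cannot be told apart at 9 linked members.

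Gene length, base composition and repeated sequence were set beside the shares. The median member was 25.9 kb long, other chromosome 19 genes 13.9 kb and zinc finger genes of other autosomes 26.1 kb. In the class of 20 to 40 kb, 2 of 100 members were linked (2%), compared with 86 of 262 other chromosome 19 genes (32.8%) and 15 of 74 zinc finger genes of other autosomes (20.3%). Members had the lowest share of the 3 sets in each of the 4 length classes. The difference was smallest under 10 kb, with 3 of 25 members (12%) and 6 of 32 genes of other autosomes (18.8%).

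The median GC content of the gene body with 50 kb on each side was 43.8% for members and 52.4% for other chromosome 19 genes. For zinc finger genes of other autosomes it was 43.7%, close to that of the members. Linked members had 44.1 to 54.6%, with a median of 52.1%, and unlinked members a median of 43.7%. Under 42% GC none of 72 members was linked, and none of 20 other chromosome 19 genes. For the members this would allow a share of up to 4.17% if genes were independent. From 42 to 46% the counts were 1 of 117 members (0.855%) and 7 of 124 other chromosome 19 genes (5.65%), and at 50% or more they were 6 of 30 (20%) and 340 of 927 (36.7%). The share rose with GC content in both sets, and members were below in the 3 classes where any gene was linked. Zinc finger genes of other autosomes were linked at every GC level, in 13 of 90 cases (14.4%) under 42% and 17 of 77 (22.1%) from 42 to 46%. The part of GC content in the low share of members was not tested.

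**Figure D5:**
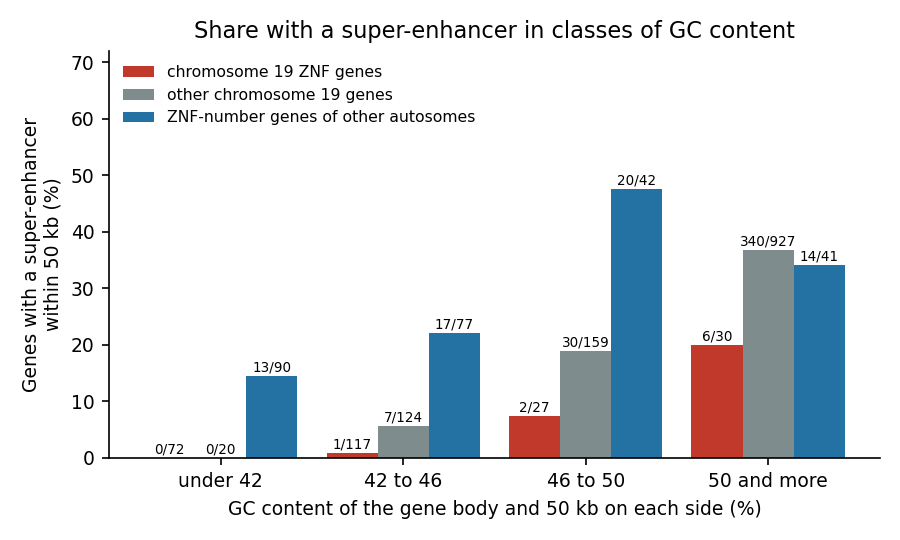
Share of genes with a super-enhancer within 50 kb (y axis, %) in classes of the GC content of the gene body and 50 kb on each side (x axis, %), for members in red, other chromosome 19 genes in grey and zinc finger genes of other autosomes in blue; the numbers are linked genes over all genes, and there are no error bars. Red is the lowest or joint lowest bar in each class and reaches 20% at a GC content of 50% and more.

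Clustered zinc finger genes resemble each other. The share of 31-base words that occur elsewhere in the genome was therefore taken as a rough measure of repeated sequence. The reads of the study were paired and longer than these words, so a repeated word need not make a read pair ambiguous. The median share of repeated words was 23% for members, 22% for other chromosome 19 genes and 18% for zinc finger genes of other autosomes. With under 15% of repeated words, 0 of 31 members were linked, which would allow a share of up to 9.68% if genes were independent. In this class 36 of 128 other chromosome 19 genes (28.1%) and 15 of 80 zinc finger genes of other autosomes (18.8%) were linked. From 20 to 30% the counts were 6 of 110 members (5.45%) and 196 of 605 other genes (32.4%). Linked and unlinked members had medians of 21 and 23%. The part of repeated sequence in the low share of members was not tested.

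Zinc finger genes of other autosomes lay on 19 chromosomes. Among the 10 chromosomes with at least 10 of them, the linked share ran from 0% to 44.4%, and it was below that of the members on 1. Chromosome 7, with 35 such genes the richest, had 8 linked (22.9%), and chromosome 16 had 9 of 30 (30%). Distances had quartiles of 49.5 and 580 kb over all 250 of these genes, so their upper quartile lies under the members' median.

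The corepressors that KRAB proteins work with were read from a fixed list of 17 genes, of which 8 were linked (47.1%), beside 30.7% of all protein-coding genes; no test was made at 17 genes. For those near more than 1 region, the one of highest signal is given. UHRF1, which reads hemimethylated DNA, was overlapped by a region with a signal of 70096 at rank 87. CBX3, a heterochromatin protein gene, had a region of 29501 at rank 706, HDAC1, a histone deacetylase gene, 19798 at rank 1303, and DNMT1, the maintenance DNA methyltransferase, 18226 at rank 1447. TASOR, of the HUSH silencing complex, had 15487, and MORC2, which acts with that complex, had 13316. The regions of CBX5 and CBX1 were weaker, at 13044 and 12769. TRIM28 itself, which lies on chromosome 19 near the end of the long arm, was 2418 kb from a region, and SETDB1 was 237 kb from one; both are named although they have no link. UHRF1 and DNMT1 lie on the same chromosome as the members.

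Other gene families of chromosome 19 were counted by symbol. No link was found in 15 KLK, 10 PSG, 10 SIGLEC, 10 LILR, 7 KIR, 20 OR or 3 VN1R genes. Of the CEACAM genes 2 of 12 were linked (16.7%), CEACAM4 and CEACAM21, and of the CYP genes 1 of 12 (8.33%), CYP2A6. The other zinc finger names, ZSCAN with 7 genes and ZFP with 5, had none. Against the 30.7% of all genes these families are small. If genes were independent, a count of 0 would allow a share of up to 15% for OR and 20% for KLK genes. The limit would be 30% for PSG, SIGLEC and LILR, 42.9% for KIR and ZSCAN, 60% for ZFP and 100% for VN1R genes. Genes that lie side by side are not independent, so these limits may be too low and no shortfall is read from them.

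As a check of the labelled cell type, 10 of 12 germinal center B cell genes were linked, with EBF1, PAX5 and CIITA at ranks 162, 216 and 50. None of 4 T cell genes and none of 3 epithelial or liver genes had a link, and of 3 myeloid genes CSF1R did, at rank 2511. On chromosome 19 the B cell genes CD79A, MEF2B and POU2F2 were linked, the first to a region with a signal of 57722. CD22, the other listed B cell gene of this chromosome, was not linked and lay 95.5 kb from a region. The region of POU2F2 is the one that links ZNF526.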

How the data were processed

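CUT&RUN reads were processed by the authors with nf-core cutandrun against hg38, using IgG controls for each genotype, depth scaled to reads at promoters, SEACR peaks and MACS2 summits. They ran ROSE on WT H3K27ac after removing start sites of non-coding RNA, joined peaks within 12.5 kb, left out peaks near a start site and kept regions above a cutoff of 10617. The deposited signal is the ROSE sum per region for 1 pooled column of 2 libraries, and its scale is not given in the sources used here. Depth behind a value is unknown, and intervals cover counting error over genes only. The submitters' processing notes also name DESeq2 and DiffBind 3.6.1, whose output was not used here.

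Regions were linked to GENCODE version 44 genes, on the build of the files. Intervals of a share are exact (Clopper-Pearson) at 95%, those of a difference combine both, and an upper limit for a count of 0 is 3 counts of the total. That limit treats genes as independent, which neighbouring genes are not, so it may be too low. Repeated words are 31-base words at 100 positions per gene that occur more than once in the genome. The KRAB box was matched by a run of conserved residues. The 11 readthrough genes stayed among the other chromosome 19 genes.

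The members, lists and limits were chosen with earlier results of these data known. Named members are all linked or overlapped ones, the 5 farthest, the 3 on each side of the limit and the first and last of each large group; others are marked in the text. Corepressors are named with values where linked. The planned limma comparison of C, K and CK with WT could not be made without values per sample. Scripts were tested on simulated data. Python 3.11.15 was used with scipy 1.17.1 and numpy 2.4.6, with matplotlib 3.10.9 for figures, and with numba 0.67.0 and pandas 2.3.3 for counting.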

Additional observations from a re-analysis of the deposited data

How the results depend on the processing

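Across 68 alternatives of 6 results, both differences kept their sign, 52 values stayed within the interval of the value reported and 16 moved out of it. The share of members was 1.22% with no extension and 10.2% at 200 kb. The difference from other chromosome 19 genes was -13.3, -17.2, -21.3, -35.8 and -47.0 points with the gene body extended by 0, 10, 25, 100 and 200 kb, -13.3 with the 1307 regions of highest signal, and -18.9 against other genes inside the spans of the location groups. The difference from zinc finger genes of other autosomes was -14.0, -30.3 and -36.6 points at 0, 100 and 200 kb, -7.16 with the 1307 regions of highest signal, -12.3 with the 2056 regions of at least 10 constituents and -14.7 against genes of like length. The median distance was 2315 kb with the 1307 regions of highest signal. The split by the KRAB pattern and a finger minimum of 3 were added after seeing the data.

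Regions under the ROSE cutoff, ordinary enhancers and promoter H3K27ac were not analysed here, and a low share of super-enhancers says nothing of transcription. The pooled column hides the spread between WT samples, and links by distance need not be regulatory. No paired analysis was possible because the table has no value per sample, and for the same reason no replicate was left out. The planned filter on RefSeq proteins was not run, and coding sequences from GENCODE were used in its place.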
